A study of Rattus norvegicus with 17 samples.

Results

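Mki67 and Cdk1, a pair of genes whose transcripts mark dividing cells, were followed across 17 RNA sequencing libraries of rat lung parenchyma. The members were the 2 rows of the count table with the Ensembl IDs ENSRNOG00000028137, given as Mki67, and ENSRNOG00000000632, given as Cdk1, out of 32753 genes. The table carries IDs without gene names, and the names of both genes are those stated with the IDs when the pair was chosen. They could not be checked against the rat gene table used here, which lists no Ensembl IDs. Both genes were among the 15000 that passed the filter on low counts.

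The rats were Wistar (RjHan:WI). There were 6 control libraries from lungs given NaCl, 5 from lungs given bleomycin at 1 mg per kg, and 6 from lungs given bleomycin at 1 mg per kg together with BI1015550 at 2.5 mg per kg, called treated below. Bleomycin is a cytotoxic antibiotic that breaks DNA strands and is used to injure rodent lung and produce fibrosis. BI1015550 is, in the title of the series, a PDE4B inhibitor, and PDE4B is an enzyme that degrades cyclic AMP. That title calls the model therapeutic. The labels give no age, sex, time point, route or batch, and nothing in them ties a library to its own animal. The p-values thus cover only the spread among these libraries, which may be technical. Library numbers follow the groups (1 to 6, 7 to 12 and 13 to 18, with no number 10), and an effect of their order cannot be told apart from group. The labelled tissue could not be checked against marker genes for want of gene names.

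Mki67 encodes Ki-67, a nuclear protein that coats mitotic chromosomes and is made in cycling cells but lost in resting ones, which makes it the usual histological marker of proliferation. Cdk1 encodes the cyclin-dependent kinase that, bound to cyclin B or cyclin A, drives entry into mitosis. Adult lung renews slowly, and after injury its epithelial, endothelial, stromal and immune cells can all divide. In whole tissue, a change in the number of dividing cells and a change in the transcript per dividing cell cannot be told apart.

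Genes of late cell cycle phases are commonly controlled through a cell cycle homology region with the letters TTTGAA and through CCAAT boxes, which bind the factor NF-Y, and many S phase genes through E2F sites. The windows of both genes before the RefSeq transcription start (build GRCr8, matched by symbol for both) are shown in part because they hold such letters. Capitals mark the TTTGAA word. They also mark the CCAAT word, which reads ATTGG where it lies on the other strand, as well as the E2F-type word TTTCGCGC. All of these, and the further E2F-type word TTTGGCGC, were searched on both strands in the 250 bases before the start.
Mki67, both TTTGAA copies, chr1:199952683-199952710, minus strand: TTTGAAccgccgttttcgTTTGAATTGG
Mki67, the CCAAT copy farthest upstream, chr1:199952765-199952794, minus strand: ctctggacttccCCAATcctatgtcgccct
Cdk1, upstream of the gene record, chr20:19265043-19265251, plus strand: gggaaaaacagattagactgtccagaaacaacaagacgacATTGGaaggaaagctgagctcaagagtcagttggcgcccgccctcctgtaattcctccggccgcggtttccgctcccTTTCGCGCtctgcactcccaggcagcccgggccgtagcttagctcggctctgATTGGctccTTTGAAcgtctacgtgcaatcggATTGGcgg
Cdk1, the TTTGAA copy nearest the start, chr20:19265263-19265292, plus strand: tttaccgcggtgagTTTGAAactgctggca

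The Mki67 window held 2 copies of TTTGAA and 4 of CCAAT, and the Cdk1 window held 2 of TTTGAA and 3 of CCAAT. In Mki67 the TTTGAA copies began 117 and 99 bases before the start, and the second shared a base with a CCAAT copy on the other strand. In Cdk1 they began 72 and 16 bases before it. Of 33469 windows of 250 bases in the RefSeq table, 2.09% held at least 2 copies of TTTGAA, 9.42% at least 2 of CCAAT, and 0.17% at least 2 of each. TTTCGCGC was found in the Cdk1 window and in 0.248% of all windows. TTTGGCGC was in neither window and in 0.412% of all. The gene records reach 254 bases (Mki67) and 41 bases (Cdk1) farther upstream than the starts used by the table. The whole Mki67 window and the last 41 bases of the Cdk1 window therefore lie inside the gene records and may be transcribed. A match of letters is a description and was not tested as a site.

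Library totals ran from 15919392 to 18462105 counts in controls, from 15207791 to 16192209 with bleomycin and from 14609389 to 15889091 in treated lungs, so depth was lowest in the treated group. Values below are CPM, a count relative to the library size after TMM scaling (trimmed mean of M values). This removes depth but not gene length, so levels are compared between libraries for each gene and never between the genes. On the first principal component of all tested genes (35.8% of the variance), treated libraries 13 and 17 lay nearest the controls, at -13.4 and -11.6 against -4.17 to 8.57 for the other treated libraries and -38.4 to -25.7 for controls.

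Mki67 was 2.78-fold higher with bleomycin than in controls, and Cdk1 was 4.53-fold higher. In treated lungs both were lower than with bleomycin, Mki67 by 2.34-fold and Cdk1 by 2.80-fold. Against controls, neither gene in treated lungs passed the test. Cdk1 lay above control under every setting run and passed the threshold in some of them, while the Mki67 difference was small and its interval included 0.

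In controls Mki67 was at 11.1 CPM in the lowest library, at a median of 16.6 CPM and at 20.3 CPM in the highest (counts of 182 to 363). With bleomycin it was at 49.5, 47.8, 44.3, 37.7 and 42.5 CPM in libraries 7, 8, 9, 11 and 12 (counts of 597 to 757). In treated lungs it ran from 7.21 CPM through a median of 20.4 CPM to 29.9 CPM (counts of 108 to 458). Every bleomycin library was above every library of the other groups, and control and treated libraries overlapped. The lowest treated libraries, 17 at 7.21 CPM and 13 at 10.3 CPM, were below all 6 controls, whereas treated libraries 15, 16 and 18, at 29.9, 25.4 and 22.6 CPM, were above all of them.

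Cdk1 in controls ran from 3.75 CPM through a median of 4.81 CPM to 8.64 CPM (counts of 63 to 142). With bleomycin it was at 19.9, 27.4, 25.4, 27.1 and 22.0 CPM in libraries 7, 8, 9, 11 and 12 (counts of 304 to 430). In treated lungs it ran from 4.14 CPM through a median of 10.1 CPM to 12.3 CPM (counts of 62 to 188). Here too the bleomycin libraries stood above all others. Treated libraries 14, 15, 16 and 18, between 9.78 and 12.3 CPM, were above the highest control, and treated libraries 13 and 17, at 5.07 and 4.14 CPM, were within the control range. The same treated libraries were thus lowest for both genes.

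**Figure D1:**
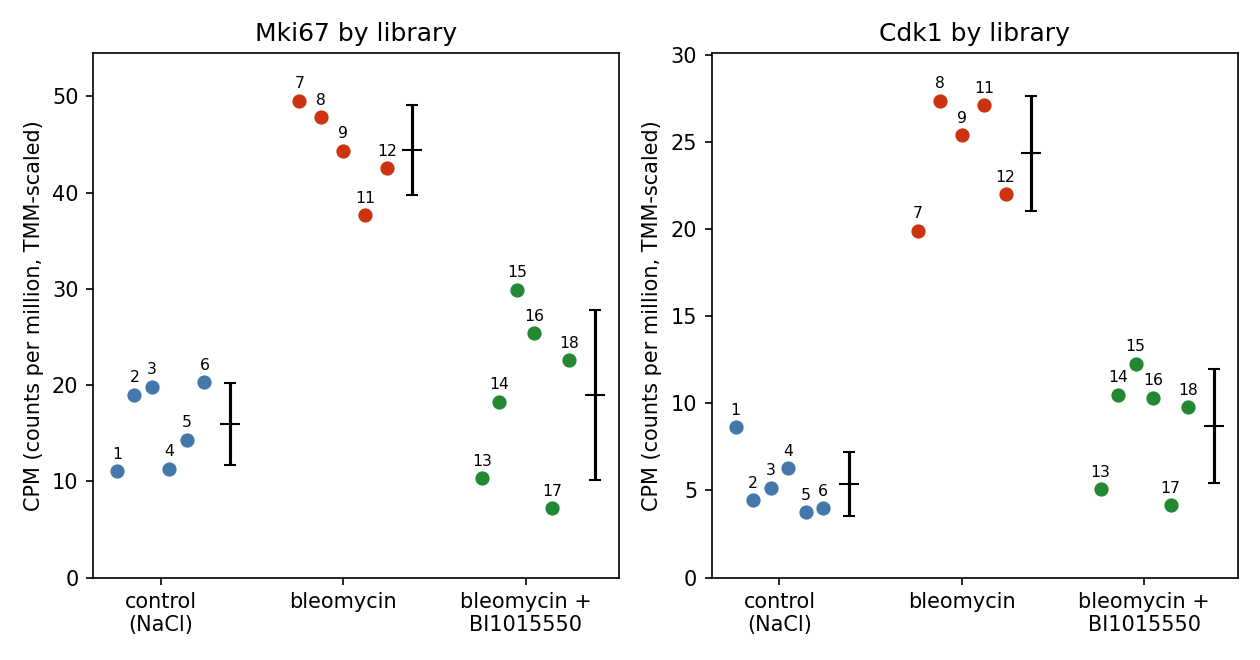
CPM of Mki67 (left) and Cdk1 (right) in each library, 1 numbered point per library, with the mean and SD of each group as a bar beside the points. Bleomycin libraries lie between 37.7 and 49.5 CPM for Mki67 and between 19.9 and 27.4 CPM for Cdk1, above all others, and treated libraries 13 and 17 are the lowest of their group in both panels.

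The first comparison asks what bleomycin did to the markers. The mean of Mki67 went from 15.96 ± 4.27 CPM in controls (SD, n = 6) to 44.4 ± 4.67 CPM with bleomycin (SD, n = 5), a log2 fold change of 1.47 (SE 0.28, 95% interval 0.89 to 2.06, edgeR adjusted p = 0.000581). The mean of Cdk1 went from 5.38 ± 1.84 CPM (SD, n = 6) to 24.4 ± 3.29 CPM (SD, n = 5), a log2 fold change of 2.18 (SE 0.26, 95% interval 1.64 to 2.72, edgeR adjusted p = 1.2e-05). Both genes were called higher, as were 20.2% of the genes tested, and the ranges of neither overlapped, which held in this direction for 9.6% of the genes. The rises were large beside the rest of the table. Only 151 genes (1.01%) had a higher log2 fold change than Cdk1 and 411 (2.74%) a higher one than Mki67, and the median among genes called higher was 0.58. Both calls kept their side of the threshold under all 16 alternative settings, in which the log2 fold change ran from 1.32 to 1.55 for Mki67 and from 2.09 to 2.45 for Cdk1.

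The second comparison asks how the markers differed between treated and bleomycin lungs. Treated lungs averaged 19.0 ± 8.80 CPM of Mki67 (SD, n = 6), and the log2 difference from bleomycin was -1.23 (SE 0.28, 95% interval -1.81 to -0.65, edgeR adjusted p = 0.00474). They averaged 8.68 ± 3.28 CPM of Cdk1 (SD, n = 6), and the log2 difference was -1.49 (SE 0.25, 95% interval -2.02 to -0.96, edgeR adjusted p = 0.00116). Both were called lower, as were 15.7% of the genes tested, and the ranges of both lay wholly below those of bleomycin, as for 8.58% of the genes. A lower log2 fold change was found for 152 genes (1.01%) in the case of Cdk1 and for 291 genes (1.94%) in that of Mki67, and the median among genes called lower was -0.50. This comparison shares the bleomycin libraries with the first, so the 2 sets of values are not independent. Without treated libraries 13 and 17 the log2 fold changes were -0.88 for Mki67 (edgeR adjusted p = 0.0115) and -1.18 for Cdk1 (edgeR adjusted p = 0.00425), still past the threshold.

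**Figure D2:**
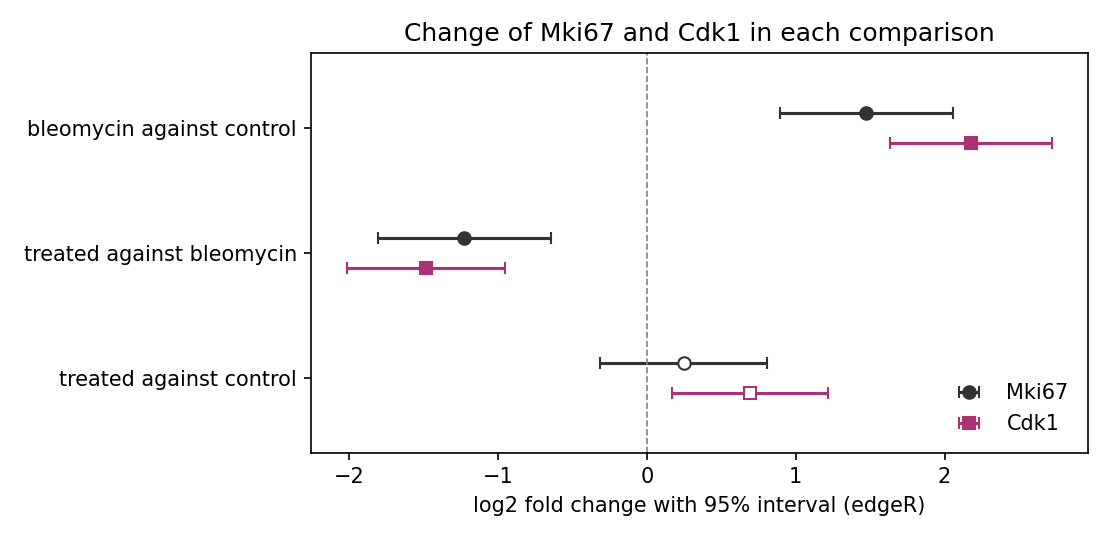
Log2 fold change of Mki67 (circles) and Cdk1 (squares) in the 3 comparisons, with 95% intervals from the edgeR fit and filled symbols where the adjusted p was below 0.05. The intervals of both genes exclude 0 for bleomycin against control and for treated against bleomycin; for treated against control that of Mki67 runs from -0.31 to 0.81 and that of Cdk1 from 0.17 to 1.22.

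The third comparison asks what difference from control was left in treated lungs. The log2 fold change of Mki67 was 0.25 (SE 0.27, 95% interval -0.31 to 0.81, edgeR adjusted p = 0.643), or 1.19-fold with an interval from 0.804-fold to 1.75-fold. That of Cdk1 was 0.69 (SE 0.25, 95% interval 0.17 to 1.22, edgeR adjusted p = 0.0964), or 1.62-fold with an interval from 1.12-fold to 2.33-fold. The unadjusted p of Cdk1 was 0.0128, and only 614 genes (4.09%) had a higher log2 fold change. Of all genes tested, 8.39% were called in this comparison. The intervals therefore leave room for a rise of Cdk1 of more than 2-fold and for either sign of the Mki67 difference.

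The Cdk1 difference from control was near the threshold and moved across it with the libraries used. It passed without control library 1 (log2 fold change 0.88, edgeR adjusted p = 0.0341), without treated library 17 (0.84, edgeR adjusted p = 0.0377), without treated libraries 13 and 17 together (1.00, edgeR adjusted p = 0.00803), with limma voom with sample quality weights (0.90, adjusted p = 0.0148) and with DESeq2 (0.69, adjusted p = 0.0499). Leaving out treated libraries 13 and 17 together was chosen after seeing the data. They had the lowest values of both genes in their group, so their removal was bound to raise the difference from control. That pass is therefore no independent result. Control library 1 had the highest Cdk1 of its group, at 8.64 CPM against 3.75 to 6.28 CPM in the other controls. Treated library 17 had the lowest Cdk1 of its group, at 4.14 CPM. Each library was left out in turn, but leaving out either of these was likewise bound to raise the Cdk1 difference. Mki67 did not pass under any of its 18 alternative settings. Its log2 fold change ran from 0.03 with limma voom with sample quality weights to 0.59 without treated libraries 13 and 17, where the edgeR adjusted p was 0.0712, and it was 0.07 without treated library 15.

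**Figure D3:**
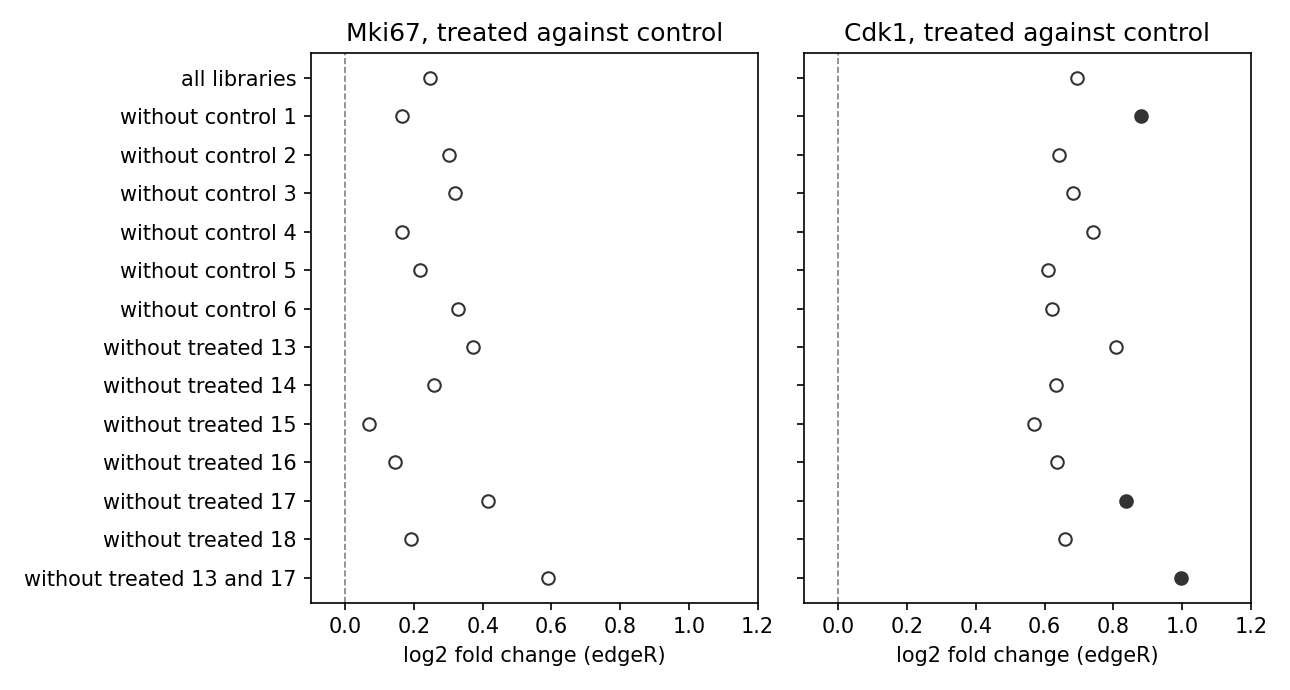
Log2 fold change of Mki67 (left) and Cdk1 (right) in treated against control lungs with all libraries and with the named libraries left out, filled where the edgeR adjusted p was below 0.05. All Cdk1 values lie between 0.57 and 1.00 and 3 of them are filled, while no Mki67 value is filled.

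The spread between libraries was wider in control and treated lungs than with bleomycin, and some of its values changed when named libraries were left out. Dixon's ratio divides the gap between an end library and its neighbour by the range. It looks at 1 library at a time and flagged 0 of the 9 sets checked. The coefficient of variation (SD over mean) of Mki67 was 26.7% in controls, 10.5% with bleomycin and 46.4% in treated lungs, where counting error alone would give 6.03%, 3.83% and 5.87%. For Cdk1 it was 34.2%, 13.5% and 37.8%, against 10.5%, 5.16% and 8.69% from counting. Without treated libraries 13 and 17 the treated values became 20.4% for Mki67 and 10.1% for Cdk1, the latter below that of bleomycin. These libraries were left out after seeing the data, as the lowest of their group for both genes, which favours a smaller value. Leaving out control library 1 was not planned either. It had the lowest Mki67 and the highest Cdk1 of its group, which also favours a smaller value. Without it the control values became 23.3% for Mki67 and 21.6% for Cdk1, and the order of the groups stayed as with all libraries. Leaving out treated libraries 13 and 17 did change that order. The highest treated library had 4.15 times the Mki67 CPM of the lowest, and 2.97 times the Cdk1 CPM. In the fit over all groups the biological coefficient of variation was 31.9% for Mki67 and 28.9% for Cdk1, larger than in 96.8% and 90.4% of the 500 genes nearest to each in mean level. These differences in spread were given no test.

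Within groups, the correlation of the pair was positive in treated lungs and negative in controls. Both values changed when the 2 libraries farthest from the Mki67 median were left out. Across the 6 treated libraries the log2 CPM of the genes had a Pearson r of 0.972 (two-sided exact permutation p = 0.00556, adjusted over 4 tests 0.0222) and a Spearman rho of 0.829 (exact permutation p = 0.0583, adjusted p = 0.117). Without treated libraries 17 and 13, the farthest from the Mki67 median, r was 0.644 over 4 libraries (exact permutation p = 0.375). Leaving out libraries picked for extreme Mki67 narrows the range and favours a lower r. Without library 17 alone r was 0.941, and without library 13 alone it was 0.969. Across the 6 controls r was -0.701 (exact permutation p = 0.131, adjusted p = 0.174) and rho was -0.6 (exact permutation p = 0.242, adjusted p = 0.242). That sign rests on control libraries 1 and 4, which had the lowest Mki67 (11.1 and 11.3 CPM) and the highest Cdk1 (8.64 and 6.28 CPM) of the group. Without them r was 0.607 (exact permutation p = 0.417). The difference between the groups' correlations was not tested, and none was computed for the 5 bleomycin libraries, since correlations were set for groups of at least 6.

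**Figure D4:**
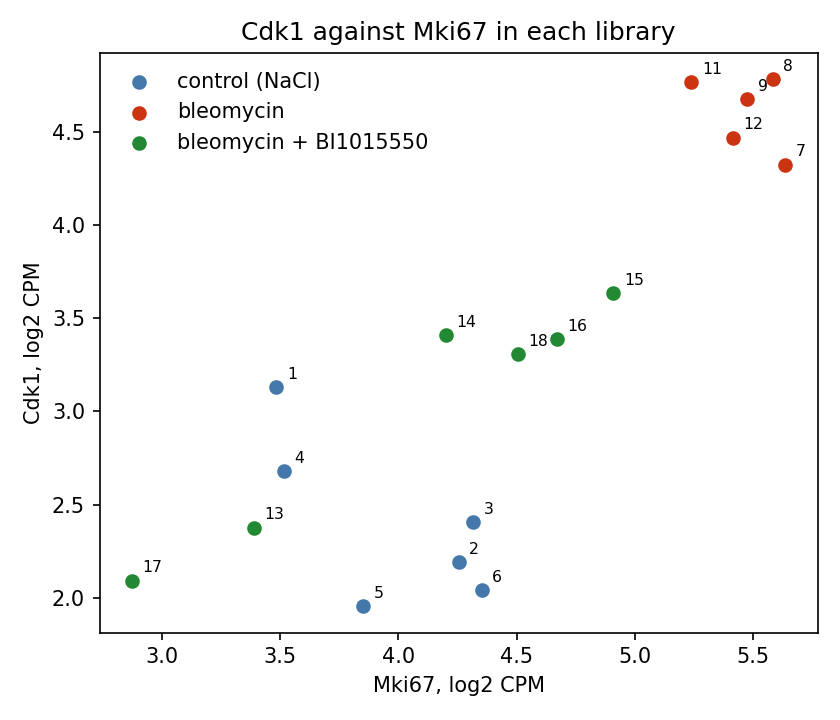
Log2 CPM of Cdk1 against log2 CPM of Mki67, 1 numbered point per library, coloured by group. The bleomycin libraries are at the upper right, treated libraries 13 and 17 lie low on both axes, and control libraries 1 and 4 sit above and to the left of the other controls.

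The number of Mki67 counts per Cdk1 count in a library does not depend on library scaling and shows whether the genes moved by unequal amounts. It was 1.28, 4.27, 3.83, 1.80, 3.81 and 5.09 in control libraries 1 to 6. With bleomycin it was 2.49, 1.75, 1.75, 1.39 and 1.93 in libraries 7, 8, 9, 11 and 12. In treated libraries 13 to 18 it was 2.04, 1.74, 2.44, 2.45, 1.74 and 2.31. Control libraries 2, 3, 5 and 6 had the highest values of all, and control libraries 1 and 4 were within or below the range of the other groups.

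On the log2 scale the control libraries had a mean ratio of 1.58 ± 0.79 (SD, n = 6). The mean was 0.87 ± 0.30 in the bleomycin libraries (SD, n = 5) and 1.07 ± 0.23 in the treated libraries (SD, n = 6). It differed by -0.71 between bleomycin and control (two-sided exact permutation p = 0.0779, adjusted over 3 comparisons 0.224), by 0.20 between treated and bleomycin (exact permutation p = 0.273, adjusted p = 0.273) and by -0.51 between treated and control (exact permutation p = 0.149, adjusted p = 0.224). The larger fold change of Cdk1 with bleomycin was therefore not distinguished from that of Mki67 by this test. The call in both comparisons with control changed only without control library 1. The differences were then -0.96 for bleomycin and -0.76 for treated lungs, each with an exact permutation adjusted p of 0.0357. That library had the lowest ratio of its group, so leaving it out was bound to widen both differences. These passes are therefore no independent result. Without any other single control the exact permutation adjusted p ran from 0.13 to 0.29.

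Likeness to other genes was measured as the Pearson correlation of log2 CPM over all 17 libraries, which share the differences between groups, and is given as a description. The correlation between Mki67 and Cdk1 was 0.835. By likeness to Mki67, Cdk1 ranked 196 of 14999 genes, and by likeness to Cdk1, Mki67 ranked 544 of 14999. The median correlation of other genes was -0.01 with Mki67 and -0.04 with Cdk1. With group means removed the correlation of the pair was 0.496 and the ranks were 1231 and 1611. Many genes thus tracked each member more closely than the members tracked each other.

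**Figure D5:**
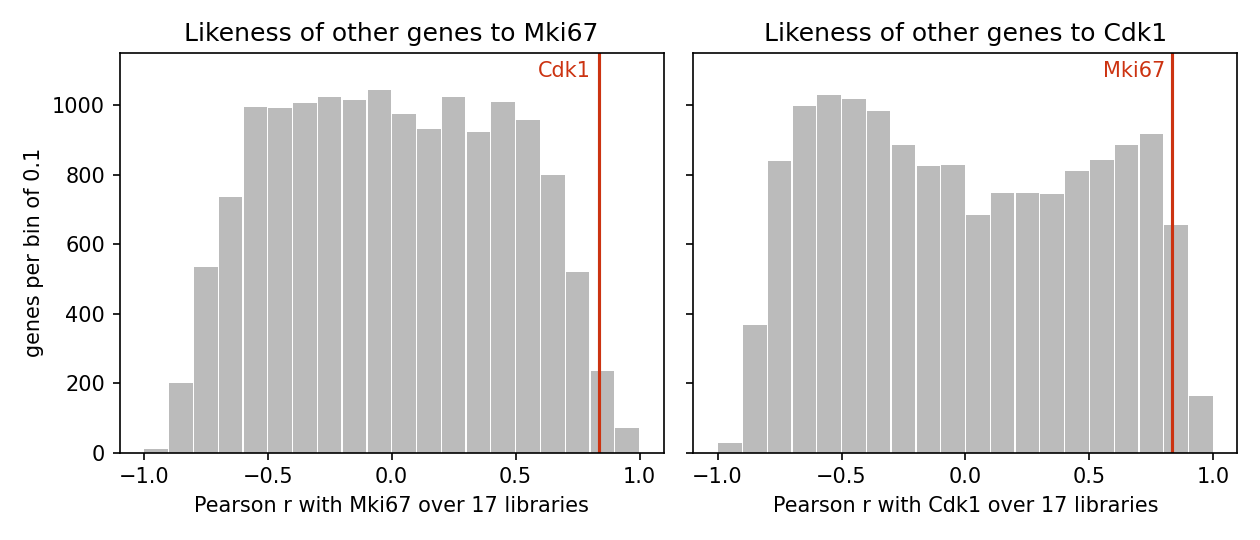
Number of genes in each bin of Pearson correlation with Mki67 (left) and with Cdk1 (right) over the 17 libraries, with the other member of the pair as a vertical line at 0.835. The line lies near the right end of both distributions, with 195 genes beyond it on the left panel and 543 on the right.

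A set of 29 genes had a correlation above 0.9 with both members. The gene most like the pair was ENSRNOG00000004921, with correlations of 0.942 with Mki67 and 0.952 with Cdk1, followed by ENSRNOG00000015423 with 0.957 and 0.930. The order depended on the measure: of the 10 genes most alike, 6 were shared with the list after removing group means and 5 with that by Spearman correlation. ENSRNOG00000004921 was in the first 10 of both of those lists, and ENSRNOG00000015423 in neither. ENSRNOG00000004921 averaged 3.58 ± 0.57 CPM over the 6 controls, 12.6 ± 1.32 CPM over the 5 bleomycin libraries and 4.89 ± 2.38 CPM over the 6 treated ones (SD). ENSRNOG00000015423 was at 3.42 ± 0.29, 12.3 ± 0.84 and 4.63 ± 2.42 CPM in the same groups (SD). Both were chosen for this pattern, so no test is given, and their names are not known from the tables used here.

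Treated libraries 13 and 17 were the lowest of all 17 libraries for both of these genes. ENSRNOG00000004921 was at 2.57 and 1.87 CPM there, below the 3.04 to 4.38 CPM of controls, and ENSRNOG00000015423 at 2.37 and 1.87 CPM, below the 2.86 to 3.69 CPM of controls. Control library 1, low in Mki67 and high in Cdk1, was the highest control for ENSRNOG00000004921 at 4.38 CPM and in the middle of the group for ENSRNOG00000015423 at 3.47 CPM.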

How the data were processed

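The authors deposited whole-number read counts per Ensembl rat gene for 17 lung libraries. Per the labels' protocols, RNA was isolated on Qiagen columns and made into Tru-seq mRNA libraries. The submitters' processing notes name FastQC 0.11.5, RSEM 1.3.0, featureCounts 1.5.1, STAR 2.5.2b and 2.5.2, and bcl2fastq 2.20.0.422, with the builds Rnor_6.0, hg38 and GRCh38 and no role for each. The sources used here do not give the annotation release, strand setting or filters, so reads of overlapping or antisense genes could not be told apart from those of Mki67 and Cdk1.

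Tests were run on the counts with edgeR 4.0.16 (R 4.3.3). Of 32753 genes, 15000 passed filterByExpr. After TMM scaling, a quasi-likelihood model with 3 groups was fitted to all libraries. Pairs of groups were compared by its F test, with Benjamini-Hochberg adjustment over all tested genes and calls at an adjusted p below 0.05. The fit takes 1 spread per gene for all groups, so SEs and intervals pool spreads that differed between groups here. Fitted to only the 2 groups compared, the edgeR adjusted p of Mki67 was 6.4e-05 for bleomycin against control and 0.0116 for treated against bleomycin. For Cdk1 these were 1.69e-05 and 0.00429. The SE is the log2 fold change divided by the square root of F, without sign, and intervals are at 95%. The test was also run on simulated counts in which each gene had the same spread in all groups. That run cannot speak to spreads that differ between groups. Correlations used log2 CPM with a prior count of 2; ratios of counts used a prior count of 0.5 and exact permutation tests (SciPy 1.17.1). DESeq2 1.42.0, limma 3.58.1, other scalings and filters, and leaving out libraries were the alternatives.

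The members and lists were chosen with earlier results of these data known. The 2 members are named throughout; of genes with a mean of at least 1 CPM, the first 2 by mean correlation with the members are named by ID. Lists of other cell cycle genes and of cell type markers were not run, since no table used here pairs the IDs with symbols.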

Additional observations from a re-analysis of the deposited data

How the results depend on the processing

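The differences of Mki67 and Cdk1 for bleomycin against control and for treated against bleomycin kept their direction and their side of the threshold under each alternative run (16 and 17 for each gene). Leaving out single libraries gave 1.39 to 1.55 for Mki67 and 2.09 to 2.37 for Cdk1 in the first comparison, and -1.40 to -1.06 and -1.61 to -1.34 in the second. For treated against control, Cdk1 passed the threshold in 5 of 18 alternatives: with DESeq2 at a log2 fold change of 0.69, with limma voom with sample quality weights at 0.90, without treated libraries 13 and 17 together at 1.00 (an alternative chosen after seeing the data), and in 2 of the fits without a single library, which ranged from 0.57 to 0.88. Those 2 fits left out the control library with the highest Cdk1 and the treated library with the lowest, which was bound to raise the difference. The adjusted p of Cdk1 ran from 0.00803 to 0.216 over the 18 alternatives. Mki67 ranged from 0.07 to 0.42 without single libraries.

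The number of genes called in treated against control lungs was 1259, and 2546 with limma voom with sample quality weights and 794 to 1216 without single libraries; in treated against bleomycin lungs it was 4163, and 1929 without treated libraries 13 and 17. The log2 ratio of Mki67 to Cdk1 ranged from -0.96 to -0.56 (bleomycin against control), 0.10 to 0.31 (treated against bleomycin) and -0.76 to -0.36 (treated against control) without single libraries. The correlation of the pair in controls turned to 0.607 without the 2 libraries farthest from the Mki67 median and ranged from -0.891 to -0.480 without single ones. In treated lungs it was 0.644 and 0.941 to 0.998, and it lost its call in 6 of 8 alternatives. All of these losses were with 5 or 4 libraries, where fewer permutations exist and the smallest possible p is larger. With 4 libraries no correlation could have passed, so that loss was fixed in advance. In the losses with 5 libraries r was still 0.941 to 0.974, so they do not show a weaker relation. The cause of the other changes was not tested. No paired analysis was possible because no library number occurs in more than 1 group. The lowest counts, 62 for Cdk1 (95% Poisson interval 47.5 to 79.5) and 108 for Mki67 (88.6 to 130), limit the precision of treated library 17, and these intervals cover counting error only.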
